A study of Mus musculus with 2 samples.

Results

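SOX factors bind DNA through a high mobility group (HMG) box and are sorted into lettered groups by the likeness of that box. Described here are 10 of them, Sox2, Sox4, Sox5, Sox6, Sox9, Sox10, Sox11, Sox12, Sox13 and Sox17, chosen by name as rows of the 2 count tables, out of 23284 gene rows in all. The choice was made with earlier results of these data known. RNA-seq was done on 2 libraries of 1 group. Each library came from cells that carried green fluorescent protein and were sorted, at stage e15.5, from the whole pancreata of mouse embryos with an NGN3-EGFP reporter, of a strain labelled mixed, C57BL6. The series' title calls them endocrine progenitors. Every library carries the reporter, no other genotype or treatment was compared, and the labels do not say how the reporter was built, which cells it marks beyond those with NGN3, how many embryos were pooled or whether the libraries came from separate litters. The spread between the replicates may therefore be technical.

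In the embryonic pancreas, multipotent and later bipotent progenitor cells carry SOX9, and some of them switch on NGN3 (encoded by Neurog3), leave the epithelial cords and become hormone cells. The SOXC factors (SOX4, SOX11 and SOX12) activate transcription and are best known from differentiating neurons, and SOX4 is also needed for normal endocrine cell formation in the mouse. The SOXD factors (SOX5, SOX6 and SOX13) lack an activation domain of their own, pair through a coiled coil and modulate other SOX proteins, as SOX5 and SOX6 do beside SOX9 in cartilage. SOX10 marks neural crest and glia, SOX17 marks definitive endoderm and arterial endothelium, and SOX2 marks pluripotent, neural and foregut progenitors.

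The relation of the 10 genes can be read from their coding sequence, which also bears on how reads are assigned to them. An ungapped 60-base coding window of each gene, in the GENCODE M21 transcripts, is printed below from 5′ to 3′. The Sox4 window is the in-frame one with the highest summed identity to the best in-frame matches in the other members, which are shown. Capitals stand at the 26 bases that are the same in all 10 and lower case elsewhere.
Sox4: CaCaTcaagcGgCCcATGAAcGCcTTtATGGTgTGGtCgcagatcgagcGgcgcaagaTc
Sox11: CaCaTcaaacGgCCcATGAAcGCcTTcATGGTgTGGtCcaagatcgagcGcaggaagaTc
Sox12: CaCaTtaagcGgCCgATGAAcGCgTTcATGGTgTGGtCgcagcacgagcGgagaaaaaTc
Sox5: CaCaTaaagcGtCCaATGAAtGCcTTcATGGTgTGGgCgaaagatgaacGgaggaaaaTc
Sox6: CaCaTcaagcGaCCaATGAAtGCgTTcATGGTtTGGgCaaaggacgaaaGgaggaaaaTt
Sox13: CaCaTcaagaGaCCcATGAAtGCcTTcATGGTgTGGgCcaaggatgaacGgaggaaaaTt
Sox9: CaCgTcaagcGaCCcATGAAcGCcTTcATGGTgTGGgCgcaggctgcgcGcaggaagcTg
Sox10: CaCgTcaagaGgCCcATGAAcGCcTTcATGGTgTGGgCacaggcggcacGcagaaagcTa
Sox2: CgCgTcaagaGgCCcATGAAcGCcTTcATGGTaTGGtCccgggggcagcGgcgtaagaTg
Sox17: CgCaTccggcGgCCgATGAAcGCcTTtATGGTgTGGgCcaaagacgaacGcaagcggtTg
On GRCm38 the SOXC windows lie at chr13:28952791-28952850 (minus strand), chr12:27342208-27342267 (minus strand) and chr2:152397525-152397584 (minus strand). The SOXD windows lie at chr6:143841223-143841282 (minus strand), chr7:115489712-115489771 (minus strand) and chr1:133385515-133385574 (minus strand). Those of the SOXE pair lie at chr11:112782894-112782953 (plus strand) and chr15:79163351-79163410 (minus strand), that of Sox2 at chr3:34650539-34650598 (plus strand) and that of Sox17 at chr1:4493149-4493208 (minus strand). Each window lies within 1 coding exon. GRCm38 is not mm9, the build the submitters' processing notes name, and these positions serve only to place the printed bases.

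Members of the same group were more alike in that window than members of different groups. Within SOXC the identity was 88.33% for Sox4 and Sox11, 85.0% for Sox4 and Sox12 and 81.67% for Sox11 and Sox12. Within SOXD it was 85.0% for Sox5 and Sox6 and 88.33% for each of the other pairs, and Sox9 and Sox10 shared 88.33%. Between groups it ran from 63.33% for Sox2 and Sox17 to 80.0% for pairs such as Sox9 and Sox11. The longest unbroken run of identical coding bases was 48, between Sox4 and Sox11, followed by 44 between Sox9 and Sox10. No member shared a 50-base word with another member, so a read of that length or more that matches one of them exactly cannot match another. The read length is not given in the sources used here.

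Overlap with noncoding genes bears on the counts of 3 members. A noncoding gene on the opposite strand, Gm26735, shares 2616 exon bases with Sox4, whose exons span 4.795 kb, and Gm37587 shares 804 with Sox17 on the opposite strand. Sox5 shares 1330 exon bases with its antisense gene Sox5os1, on the full annotation. None of the 3 has a row in the count tables, and the strand setting of the counts is not given, so reads of these RNAs cannot be told apart from reads of Sox4, Sox17 and Sox5. Sox2 lies within the noncoding gene Sox2ot on the same strand with no shared exon bases, and Sox2ot had no read in either library.

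The libraries held 12495143 counted reads in replicate 1 and 12043734 in replicate 2. Levels are CPM, reads of a gene per 1000000 counted reads, after TMM scaling of the library sizes, and intervals are exact Clopper-Pearson 95% intervals that cover counting error only. Of the markers of the labelled cell type, all 8 endocrine progenitor genes, among them Pax4, Fev and Rfx6, reached 1 CPM in both libraries, and their median was 356 CPM in replicate 1 against 389 in replicate 2. Neurog3 itself was at 735.5 and 551.5 CPM, and Insm1, Nkx2-2 and Neurod1 had means of 950.0, 691.0 and 441.9 CPM. Each library pools the sorted cells, so fewer cells with a transcript and less of it per cell cannot be told apart.

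Of the 10 SOX genes, 7 reached 1 CPM in both libraries, where 45.7% of all gene rows did. These were Sox9, the 3 SOXC genes and the 3 SOXD genes. Sox17 reached 1 CPM only in replicate 2, and Sox2 and Sox10 in neither. The median over the 10 members was 26.9 CPM in replicate 1, where that of the 13416 genes with at least 10 reads was 22.8, and 19.2 CPM in replicate 2, where it was 23.1.

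**Figure D1:**
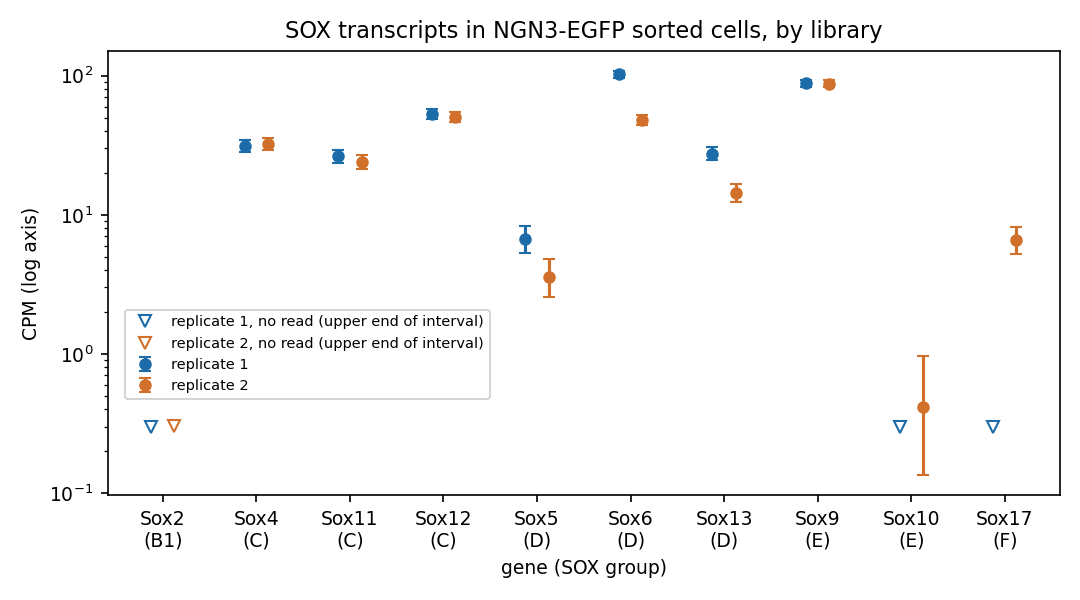
CPM (log axis) of the 10 SOX genes in each library, by SOX group, with exact 95% intervals; open triangles stand at the upper end of the interval where no read was counted. Sox9, Sox4, Sox11 and Sox12 have overlapping intervals in the 2 libraries, while Sox5, Sox6 and Sox13 are each higher in replicate 1.

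Sox9, the progenitor and duct factor, had the smallest difference between the libraries of the 7 members with reads in both. Replicate 1 held 88.2 CPM (interval 83.0 to 93.6) and replicate 2 held 87.9 (82.7 to 93.3), from 1097 and 1063 reads. The libraries thus differed by less than counting error, although genes from 50 to 200 CPM had a median absolute log2 ratio of 0.54 between them and 22.8% differed at least 2-fold. By an exact binomial test of the reads in the 2 libraries, with Benjamini-Hochberg adjustment over all genes tested, the adjusted p for Sox9 was 0.956. This test compares these 2 libraries, not conditions.

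The SOXC genes were present in both libraries at close levels. Sox12, the broadly expressed member of the group, had 53.1 CPM in replicate 1 against 50.7 in replicate 2. Sox4, the member with a known part in endocrine cell formation, was at 31.4 and 32.2 CPM. Sox11, which acts in neuronal differentiation, was at 26.3 and 24.0 CPM. For each of the 3 the intervals of the 2 libraries overlapped. The exact binomial test gave adjusted p values of 0.427 for Sox12, 0.767 for Sox4 and 0.283 for Sox11 (Benjamini-Hochberg). Per kb of exon, Sox4 was 2.07 times Sox11 in replicate 1 and 2.33 times in replicate 2, and below Sox12, which was 1.82-fold and 1.69-fold higher per kb. The Sox4 values include any reads of Gm26735.

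The SOXD genes were all higher in replicate 1, by similar factors. Sox6, the most abundant of the group, had 102 CPM in replicate 1 (interval 96.9 to 108.2) against 48.3 in replicate 2 (44.4 to 52.4), a 2.12-fold difference. Sox13, whose human protein is known as an autoantigen in diabetes, was at 27.5 CPM (24.6 to 30.6) and 14.4 CPM (12.3 to 16.7), a 1.91-fold difference. Sox5, the partner of Sox6 in cartilage, was at 6.67 CPM (5.31 to 8.27) and 3.56 CPM (2.57 to 4.79), a 1.88-fold difference. The intervals of the 2 libraries did not overlap for any of the 3. By the exact binomial test the adjusted p was 4.73e-54 for Sox6, 1.87e-12 for Sox13 and 0.000877 for Sox5 (Benjamini-Hochberg).

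Among tested genes at the levels of these members, such differences were common. Of those from 10 to 50 CPM, where Sox13 lies, 49.6% differed at least 2-fold, and of those from 1 to 10 CPM, where Sox5 lies, 74.0% did. Sox6, from 50 to 200 CPM, lies where 22.8% did. Ratios within the group were close in the 2 libraries. Per kb, Sox6 was 1.49 times Sox13 in replicate 1 and 1.34 times in replicate 2, and it was 12.2 and 10.8 times Sox5. Sox13 was 8.19 and 8.04 times Sox5.

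Of the 8 members with at least 10 reads, 4 differed between the libraries in the exact test at a Benjamini-Hochberg adjusted p under 0.05, where 85.8% of the 13416 genes tested did. Here and below, a gene is called higher in a library where it met that threshold. Of the 4, 3 were called higher in replicate 1 (Sox5, Sox6 and Sox13), against 41.7% of all tested genes. Sox17 alone was called higher in replicate 2, against 44.1% of all tested genes. The median absolute log2 ratio was 0.51 over the 8 members and 0.95 over all genes tested, and the median log2 ratio was -0.10 against 0.04. With a 2-fold difference also required the count was 2, Sox6 and Sox17, against 48.2% of all genes tested.

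**Figure D2:**
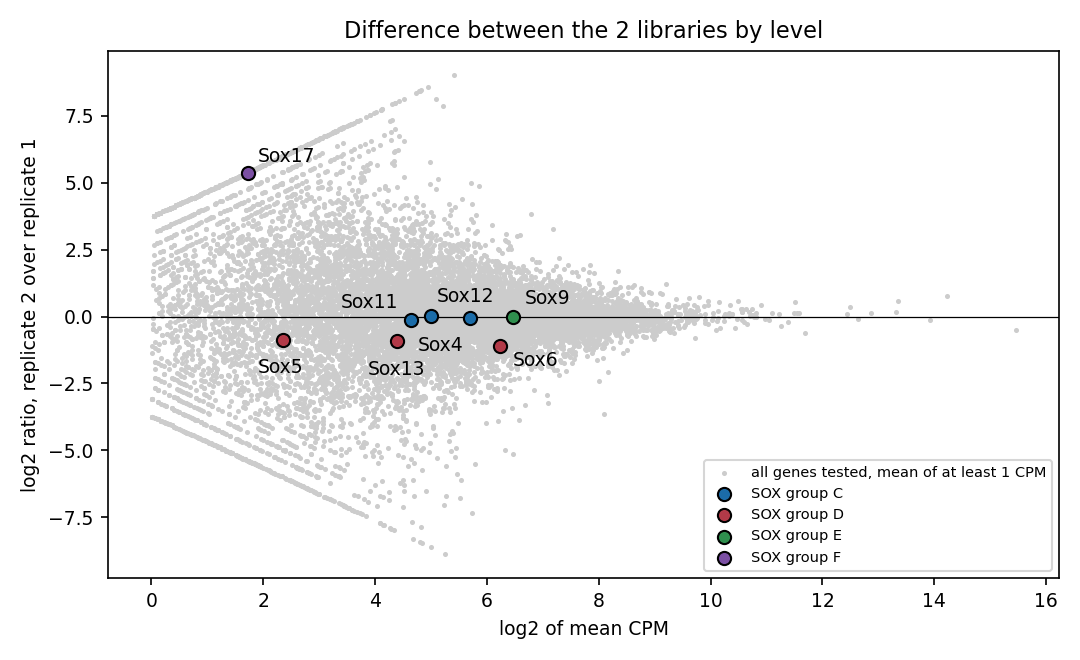
Log2 ratio of replicate 2 over replicate 1 (with a prior count of 2) against log2 mean CPM for the genes tested with a mean of at least 1 CPM (grey) and the 8 tested SOX genes, coloured by SOX group. Sox9 and the SOXC genes lie near 0, the SOXD genes lie between -0.88 and -1.08, and Sox17 lies at 5.38 on the line formed by genes with no read in replicate 1.

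Sox17 was counted in 1 library only. It had 0 reads in replicate 1, for which the one-sided limit of 3 counts is 0.241 CPM and the two-sided interval ends at 0.296 CPM, and 80 reads in replicate 2, or 6.61 CPM (interval 5.24 to 8.23). Against the limit of 3 counts in replicate 1, replicate 2 was at least 27.4-fold higher, a value that leaves out the counting error of the 80 reads. The adjusted p of the exact binomial test was 8.1e-25 (Benjamini-Hochberg). By mean level Sox17 lies among the tested genes from 1 to 10 CPM, of which 74.0% differed at least 2-fold. The median absolute log2 ratio of those genes was 2.31. Reads of the opposite-strand gene Gm37587 may be among the 80.

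Markers of endothelium, where Sox17 is known to act, were mixed. Of 10 endothelial genes, 5 were higher in replicate 1 and 5 in replicate 2, and 2 reached 1 CPM in each library. Their median was 0.080 CPM in replicate 1 against 0.124 in replicate 2, while their sum, most of it from Cdh5 and Eng, was 29.4 against 7.52 CPM. Esam, an endothelial adhesion molecule, was at 0 and 4.46 CPM, the same way round as Sox17. So were Pecam1, with 1 and 8 reads, and Cldn5, with 0 and 2. Cdh5, the cadherin of endothelial junctions, was at 15.6 and 0.17 CPM, and Eng, a co-receptor of the TGF-beta family, at 13.5 and 1.90 CPM, both the other way round. The receptor genes Kdr, Tek and Tie1 had at most 1 read in a library, as did Emcn and Erg. The other SOXF genes, Sox7 and Sox18, had no read and 1 read in all.

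Sox10 was at the limit of detection, with 0 reads in replicate 1 and 5 in replicate 2, or 0.413 CPM (interval 0.134 to 0.965). In replicate 1, Sox9 was at least 246-fold above its SOXE partner per kb, against the one-sided limit of 3 counts. In replicate 2, where Sox10 had reads, the ratio was smaller, with Sox9 at 21.25 and Sox10 at 0.149 CPM per kb. Of 10 genes of neural crest and enteric glia, 3 reached 1 CPM in replicate 1 and 5 in replicate 2, with summed levels of 251 and 121 CPM. Most of that sum was Ret, a receptor that other cell types also carry, at 226 and 105 CPM. Of the list, 3 genes had no read, among them Foxd3, a defining factor of neural crest. Erbb3, a neuregulin receptor, was at 16.2 and 5.70 CPM, lower in replicate 2, where the 5 reads of Sox10 were counted. Tfap2a and Fabp7 were at 3.31 and 2.73 CPM in replicate 2, with 1 and 0 reads in replicate 1. The part of other cells in the Sox10 and Sox17 reads was not tested.

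Sox2 had no read in either library, for which the limit of 3 counts is 0.241 CPM in replicate 1 against 0.248 in replicate 2. Of the 10 further SOX genes with a row, Sry included, Sox3, Sox7, Sox14 and Sry had no read and 5 had reads but stayed below 1 CPM in both libraries. Sox8, the remaining SOXE gene, had 1.93 CPM in replicate 1 but 0.17 in replicate 2, from 24 and 2 reads. The 10 members held 99.1% of all SOX reads in replicate 1 and 99.8% in replicate 2. They were chosen with earlier results of these data known, so this share is not an independent result.

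Levels of different genes can be compared only per length, for which CPM was divided by exon length in kb. On this scale Sox9 led with 21.3 ± 0.05 CPM per kb (SD, n = 2), followed by Sox12 at 11.7 ± 0.39. Sox6 was at 8.05 ± 4.09, Sox4 at 6.64 ± 0.12, Sox13 at 5.60 ± 2.48 and Sox11 at 3.02 ± 0.20 CPM per kb. Sox17 was at 0.81 ± 1.14, Sox5 at 0.69 ± 0.30 and Sox10 at 0.07 ± 0.11 CPM per kb. In this order the library values of Sox6 and Sox4 overlapped, as did those of Sox4 and Sox13, of Sox17 and Sox5 and of Sox10 and Sox2, so these neighbours did not differ beyond their spread. The values of the other neighbours did not overlap, though 2 libraries allow no exact test of an order below p = 0.5.

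The order of Sox6 and Sox4 also rests on the transcripts counted. Exons of Sox6 span 9.362 kb in the basic transcript set, and with the full set its mean was 5.08 CPM per kb, below Sox4 at 6.64. Sox9 exceeded 86.0% of the 20882 gene rows with a known length by mean CPM per kb, Sox12 76.9% and Sox4 68.6%. Sox5 exceeded 48.1% and Sox10 39.6%. Per kb, Neurog3 was 22.4 times Sox9 in replicate 1 and 16.85 times in replicate 2.

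**Figure D3:**
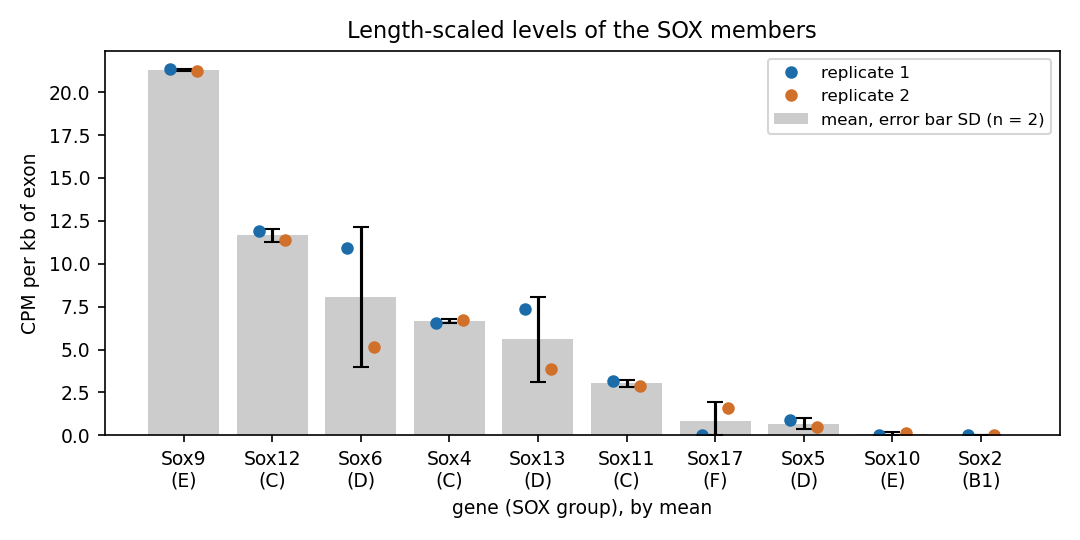
CPM per kb of exon of the 10 SOX genes, ordered by mean; bars are means, error bars SD over 2 libraries (the lower end stops at 0) and points the libraries. Sox9 stands above the others at 21.3 CPM per kb, and the 2 libraries are furthest apart in Sox6.

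By SOX group, the summed level per kb was shared among SOXC, SOXD and SOXE. The SOXC sum was 21.6 CPM per kb in replicate 1 and 21.0 in replicate 2, and the SOXE sum, nearly all of it Sox9, was 21.3 and 21.4. The SOXD sum was 19.2 CPM per kb in replicate 1 and 9.48 in replicate 2. SOXD thus made up 30.9% of the summed level of the 10 members in replicate 1 and 17.7% in replicate 2, while SOXC made up 34.8% and 39.2%.

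Mesenchymal and cartilage genes are given here because SOXD and SOX9 factors act in those cells. The 11 mesenchymal genes summed to 426 CPM in replicate 1 but 143 in replicate 2, with 9 and 6 of them at 1 CPM or more and Twist1 at 0 reads in both. Of 10 tested, 9 were called higher in replicate 1, as were the SOXD genes and 41.7% of all tested genes, and 1 in replicate 2. Their highest members, the collagen genes Col1a2, Col1a1 and Col3a1 and the filament gene Vim, had means of 84.4, 52.4, 51.1 and 53.8 CPM. The part of mesenchymal RNA in the SOXD difference was not tested.

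Of 8 cartilage genes, 5 reached 1 CPM in each library and 4 in both, and their summed level was 103 CPM in replicate 1 against 81.3 in replicate 2. Col2a1, the main collagen of cartilage and a SOX9 target there, was at 33.0 and 15.0 CPM, and Col11a2 at 29.2 and 17.2 CPM. Col9a2 was at 33.8 and 37.0 CPM and Hapln1, a link protein, at 3.94 and 6.45 CPM. Acan, the cartilage proteoglycan, was at 2.89 and 0 CPM and Col9a1 at 0.16 and 5.62 CPM. Matn1 and Comp had no read. Of 6 tested, 3 were called higher in replicate 1 and 2 in replicate 2, against 41.7% and 44.1% of all tested genes.

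Genes tied to SOX9 in the pancreas were present almost throughout, with 11 of 12 at 1 CPM or more in both libraries. The exception was Onecut1, a factor of early progenitors and ducts, with 3 reads in each library. Neurog3 is among the 12, and genes such as Onecut1 are also in the list of trunk progenitors and ducts. Pdx1, the pancreatic homeodomain factor, was at 164 and 135 CPM, and Pkd2, a protein of the primary cilium, at 139 and 108 CPM. Glis3, a zinc finger factor, was at 88.3 and 107 CPM. Fgfr2, the receptor through which mesenchymal FGF10 acts on progenitors, was at 35.9 and 129 CPM. Of 11 tested, 6 were called higher in replicate 1 and 3 in replicate 2, against 41.7% and 44.1% of all tested genes.

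Of 8 genes of trunk progenitors and ducts, 6 reached 1 CPM in both libraries, with medians of 85.4 and 65.6 CPM. Prox1, Krt7, Muc1 and Spp1 had the highest means, at 824, 225, 168 and 77.5 CPM. Of 6 tested, 5 were called higher in replicate 1 and 1 in replicate 2, against 41.7% and 44.1% of all tested genes.

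Genes with a known link to SOXC factors in neurons were also counted. Of 9, 8 reached 1 CPM in both libraries, with a median of 78.5 CPM in replicate 1 against 58.4 in replicate 2. Their highest members were Prox1, Neurod1, Dcx and Mtap2 (the older symbol of Map2). Prox1 is also in the trunk and duct list and Neurod1 in the endocrine progenitor list, so these lists are not independent. The microtubule gene Dcx was at 184 and 192 CPM, and Mtap2 at 143 and 117 CPM. Tubb3, a neuronal tubulin, was at 78.5 and 51.7 CPM, and Tead2, a Hippo pathway factor, at 47.3 and 6.53 CPM. Of 9 tested, 6 were called higher in replicate 1 and 1 in replicate 2, against 41.7% and 44.1% of all tested genes.

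Of 16 partners and cofactors of SOX proteins, 10 reached 1 CPM in both libraries. The highest were Ctnnb1 (beta-catenin) at 1505 CPM, Pax6, a partner of SOX2 in the eye, at 605 CPM, Ep300, a histone acetyltransferase, at 475 CPM and Sdcbp, the SOX4-binding adaptor syntenin, at 216 CPM on average. Among the POU factors, which pair with SOX2 and SOXC proteins on DNA, Pou2f1 was at 163 and 64.8 CPM and Pou3f4 at 37.5 and 51.7 CPM. Pou5f1, the partner of SOX2 in pluripotent cells, had no read, like Sox2 itself. The corepressor genes Ctbp1 and Ctbp2, whose products bind SOXD proteins, went opposite ways, with Ctbp1 at 19.6 and 42.7 CPM and Ctbp2 at 66.1 and 19.6 CPM in the 2 libraries. Of 12 tested, 5 were called higher in replicate 1 and 7 in replicate 2, against 41.7% and 44.1% of all tested genes.

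Of the cell type lists not yet described, the acinar list had the highest summed level. No list was drawn up for hormone cells. The 8 acinar genes, led by Ctrb1 and Pnliprp1 (digestive enzymes) with means of 1153 and 365 CPM, summed to 2048 CPM in replicate 1 against 1476 in replicate 2, with 6 of 8 at 1 CPM or more in both and Ptf1a at 0 and 3 reads. Of 7 tested, 6 were called higher in replicate 1, as were the SOXD genes and 41.7% of all tested genes. The remaining 1 was called higher in replicate 2, as were 44.1% of all tested genes. The 5 immune genes summed to 56.4 and 18.4 CPM, with 2 at 1 CPM or more in both libraries. These were Laptm5, at 37.9 and 3.56 CPM, and Cd68, at 18.4 and 7.69 CPM. The levels of these 2 were higher in replicate 1, and those of the other 3 were higher in replicate 2. Of those 3, Aif1 had 0 and 81 reads, Csf1r had 1 and 4, and Ptprc had 0 and 1. The 4 erythroid genes summed to 0.24 and 2.81 CPM, with 2 of them at 0 reads, among them Hbb-bh1, an embryonic globin gene.

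**Figure D4:**
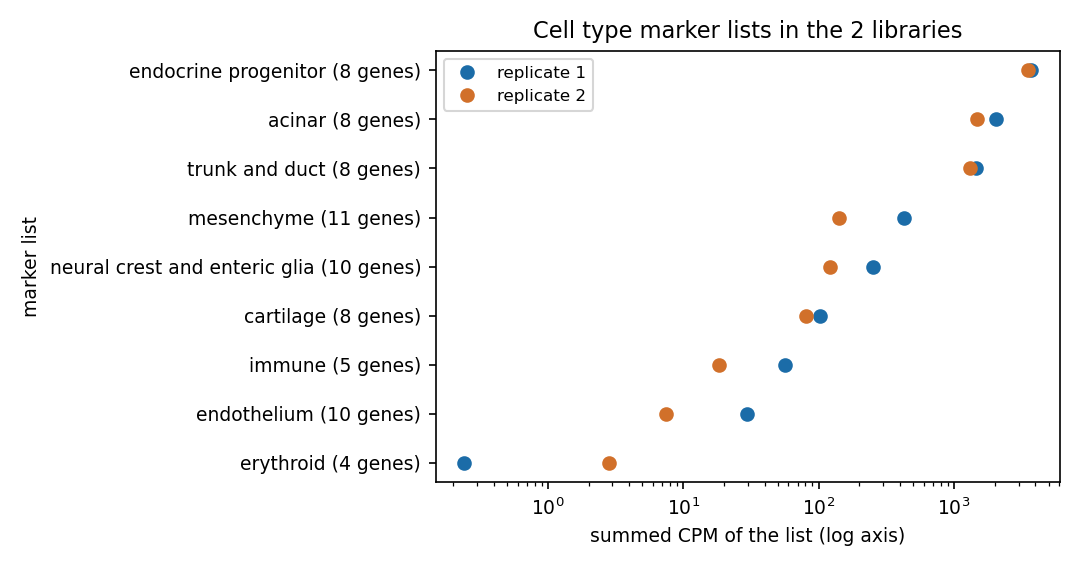
Summed CPM (log axis) of the marker lists of 9 cell types in the 2 libraries, with the number of genes in each list. Endocrine progenitor genes lead in both libraries, and the mesenchymal sum is 426 CPM in replicate 1 against 143 in replicate 2.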

How the data were processed

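RNA-seq was deposited for 2 libraries of 1 group. The authors deposited whole-number counts for each gene symbol, which were not normalized. Per the submitters' processing notes, tools included TopHat2 (2.0.4), Cufflinks (2.0.2), cutadapt, FastQC and DESeq, and the build was mm9, without roles; which program counted, with what annotation, strand setting and handling of multi-mapped reads, is not given in the sources used here. Counts were scaled with TMM factors (edgeR 4.0.16, R 4.3.3). Log2 ratios used a prior count of 2. Differences between the libraries were tested on reads by the exact binomial test (two-sided, SciPy 1.17.1). It was run for the 13416 genes with at least 10 reads, with Benjamini-Hochberg adjustment at 0.05. The test was tried on simulated counts that held counting error only. That trial therefore cannot show how the test behaves under the wider spread between these libraries. With 1 group, no test between conditions exists. Exon lengths, overlaps and sequences came from GENCODE M21 on GRCm38; 20882 rows, or 89.7%, matched by symbol. Identity and 25- and 50-base words were computed between members.

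The 10 members and the 13 lists were chosen with earlier results of these data known. Named genes were all members, each other SOX gene at 1 CPM in a library, Neurog3, the highest up to 4 genes by mean in each list, any endothelial, neural crest or cartilage gene at 1 CPM in a library, and genes overlapping members; genes named beyond these were chosen after their values were seen. A few list members are counted in their lists but not reported here by name. Alternatives were column totals, DESeq2 1.42.0 size factors, totals without the 10 most abundant genes, other limits and filters, the full transcript set and leaving out each replicate.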

Additional observations from a re-analysis of the deposited data

How the results depend on the processing

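No paired analysis was possible because all samples belong to 1 group. The number of members at 1 CPM in both libraries, 7, was the same under column totals, DESeq2 size factors, totals without the 10 most abundant genes and a limit of 0.5 CPM, and was 6 at a limit of 5 CPM and 7 to 8 with 1 replicate left out. The number differing between libraries, 4, was the same under the other scalings, was 5 with no count filter, and was 2 when a 2-fold difference was also required, since Sox5 and Sox13 differ by less. The summed level of the 10 members, 302 CPM, was 268 to 336 CPM with 1 replicate left out. It was 346 CPM on totals without the 10 most abundant genes. On those totals Sox4, Sox9, Sox11 and Sox12 each rose by more than their SD between the libraries, Sox9 from 88.0 to 101 CPM. None of the 8 tested members changed its call under another scaling or without the filter. Without the filter Sox10, with 0 and 5 reads, was also tested and differed, with an adjusted p of 0.0379 by the exact binomial test. The biological coefficient of variation over all tested genes was 0.93 with a common dispersion, 0.78 with a trended one at the median gene and 0.77 with at least 100 reads. Per kb, the full transcript set put Sox6 below Sox4 and lowered Sox5 from 0.69 to 0.36 CPM per kb. Levels under 10 CPM, those of Sox5, Sox10 and Sox17, are limited by depth and by the wide spread of scarce transcripts between these libraries.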
